A study of Mus musculus with 24 samples.

Results

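The genes described here are 9 genes of myelin and of the cell that makes it, the oligodendrocyte, measured in isolated brain microvessels: Mbp, Mog, Mag, Mobp, Cnp, Cldn11, Opalin, Ermn and Mal. They were chosen by name, and all 9 were found once each by symbol among the 17270 genes of the normalized count table. All 9 passed the filter for testing (more than 5 normalized counts on average), which left 15982 genes in all. The microvessels came from the brains of male C57BL/6J mice aged 10 to 12 weeks. In the stroke groups the right middle cerebral artery was closed with an intraluminal filament for 60 min and then reopened (transient middle cerebral artery occlusion, tMCAO), whereas in the sham groups the filament was withdrawn at once. Vessels were taken after 24 h or 7 days from the ipsilateral hemisphere, on the side of the filament, or from the contralateral hemisphere, which gave 8 groups (sham or tMCAO, 24 h or 7 days, ipsilateral or contralateral) of 3 libraries each. Every library pools the vessels of 3 hemispheres, so it is an average over mice and says nothing of the spread between them. No transgene or deletion was used in any group, and sham animals shared the anesthesia, the neck surgery and the insertion of the filament.

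Oligodendrocytes wrap axons in a compacted spiral of their own membrane, and they arise from precursor cells that are marked by Pdgfra and Cspg4. Mbp (myelin basic protein) holds the cytoplasmic faces of the spiral together, and Mobp is a second small basic protein of the compact sheath. Mal is a proteolipid of lipid rafts that sorts membrane to the sheath, and it is also made in other polarized cells. Mog and Mag are immunoglobulin-like proteins, Mog on the outermost surface of the sheath and Mag facing the axon, and Cldn11 forms the tight junctions between its turns. Cnp is an enzyme of the non-compacted cytoplasm, Ermn is an actin-binding protein of the late, myelinating cell, and Opalin is a membrane protein of mature oligodendrocytes. Messenger RNAs of Mbp and Mobp are known to be carried along the processes and translated at the sheath, while those of most other myelin proteins remain near the cell body. During vessel isolation the myelin was floated off in an albumin solution before the vessels were collected on a mesh, so the RNA of these genes measured here is what remained attached to, or was collected with, the vessels. In such a preparation fewer oligodendrocytes or less myelin and less RNA per cell cannot be told apart.

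The values behind all results are normalized counts, that is reads per gene divided by a library-wide factor and rounded to whole numbers by the authors. They summed to between 15924780 and 18787932 per library, and the steps among the low values placed the depth at between 13693168 and 20033951 assigned reads. Pearson correlations between libraries of 1 group ranged from 0.967 to 0.988 on the log2 scale, and no pair of libraries held identical values. Endothelial markers dominated every library: Cldn5, the claudin of the endothelial tight junction, ranged from 42176 to 74690 normalized counts. By the study's count the libraries of a group are pools of separate animals, so the p-values given below measure the spread between these pools. The labels do not say whether the pools of a group were prepared as separate batches. The contralateral tMCAO library 1 at 7 days stood apart from the rest, with the highest summed neuron markers (24328 normalized counts, against 1066 to 13566 in the other 23 libraries) and the highest summed astrocyte markers (55164, against 11188 to 34795). The same library held the highest value of 6 of the 9 genes (Mbp, Mag, Mobp, Cnp, Cldn11 and Ermn), and differences that include it are therefore also given without it.

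Promoters are shown for Mog and Opalin, which were called lower after tMCAO, for Mobp, which was called higher at 7 days than at 24 h, and for Mal, whose values followed none of the others. The sequences are the 250 bases before the start site in RefSeq on GRCm38.p6 and read 5′ to 3′ on the strand of the gene. Capitals mark every match, on either strand, to the letters ACAAAG or ACAATG (core letters bound by SOX proteins), CTGGCAC or CTGGTAC (letters bound by MYRF), TATAAA (the TATA box) or GGGCGG (the GC box).
Mog promoter, chr17:37023399-37023648, minus strand: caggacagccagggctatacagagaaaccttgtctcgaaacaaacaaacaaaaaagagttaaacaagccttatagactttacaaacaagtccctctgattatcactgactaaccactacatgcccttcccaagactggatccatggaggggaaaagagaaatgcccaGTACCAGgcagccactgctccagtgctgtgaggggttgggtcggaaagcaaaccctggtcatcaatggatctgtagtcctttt
Opalin promoter, chr19:41077114-41077363, minus strand: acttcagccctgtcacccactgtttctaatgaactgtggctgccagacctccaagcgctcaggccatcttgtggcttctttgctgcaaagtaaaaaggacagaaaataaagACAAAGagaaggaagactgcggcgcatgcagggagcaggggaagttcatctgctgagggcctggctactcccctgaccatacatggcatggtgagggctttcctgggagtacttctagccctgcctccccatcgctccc
Mobp promoter, chr9:120149492-120149741, plus strand: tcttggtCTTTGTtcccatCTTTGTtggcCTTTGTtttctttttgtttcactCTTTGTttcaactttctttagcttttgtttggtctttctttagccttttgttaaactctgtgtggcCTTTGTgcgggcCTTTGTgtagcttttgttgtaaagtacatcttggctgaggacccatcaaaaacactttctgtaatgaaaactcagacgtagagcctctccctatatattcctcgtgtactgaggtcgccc
Mal promoter, chr2:127656696-127656945, minus strand: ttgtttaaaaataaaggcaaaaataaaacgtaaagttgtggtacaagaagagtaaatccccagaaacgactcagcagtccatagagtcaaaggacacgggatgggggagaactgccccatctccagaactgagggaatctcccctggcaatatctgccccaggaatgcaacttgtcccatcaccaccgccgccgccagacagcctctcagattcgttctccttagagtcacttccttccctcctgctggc

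Of the 9 genes, 8 had an entry in the promoter table, with 10 start sites among them. None of the 10 windows held TATAAA, which 12.4% of the 32851 promoter windows of this length held. The letters ACAAAG were found in 5 of the 10 (16.5% of all windows) and ACAATG in 1 (10.7%), while CTGGCAC was found in 3 (4.19%), CTGGTAC in 1 (1.83%) and GGGCGG in 1 (32.7%). Of the 3 windows of Mag, 2 overlap and hold the same matches, so these counts are not of independent windows. The Mobp window held 6 ACAAAG matches, all read on the opposite strand as CTTTGT, and the table held 1 window with 6 or more, this one. None of the 6 motifs was present in the windows of Mal and Cldn11. These matches describe letters only, since no binding was measured.

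Abundance differed widely among the 9 genes. On the scale of normalized counts per kilobase of the longest annotated transcript, averaged over all 24 libraries, Mbp stood at 8770 and ranked 72nd of 15966 genes with a length, and Mal stood at 8304 and ranked 76th. Mobp followed at 1058, which was above 93.7% of genes, and Cnp at 314, above 77.4%. The other 5 lay at or below the middle of the genes measured, whose median was 92.6 per kilobase: Cldn11 at 93.9, Mag at 78.9, Mog at 66.1, Ermn at 22.7 and Opalin at 7.59. The transcripts of compact-myelin proteins and of Mal were therefore the abundant ones, and Mbp, Mal and Mobp together made up between 95.8% and 98.7% of the summed normalized counts of the 9 genes in every library. In the contralateral sham at 7 days Mal measured 13314, 11720 and 27386 normalized counts. The endothelial marker Slc2a1 measured 90046, 100762 and 209774 there, and Cldn5 measured 66619, 74690 and 59647. Mal was thus highest in the library with the highest Slc2a1 and the lowest Cldn5. Which cells the RNA of Mal came from was not tested. Opalin rested on only 6 to 47 estimated reads per library, so that counting error alone is about 42.1% of its lowest value, whereas for Mog, with 43 to 241 estimated reads, it is about 15.3%.

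**Figure D1:**
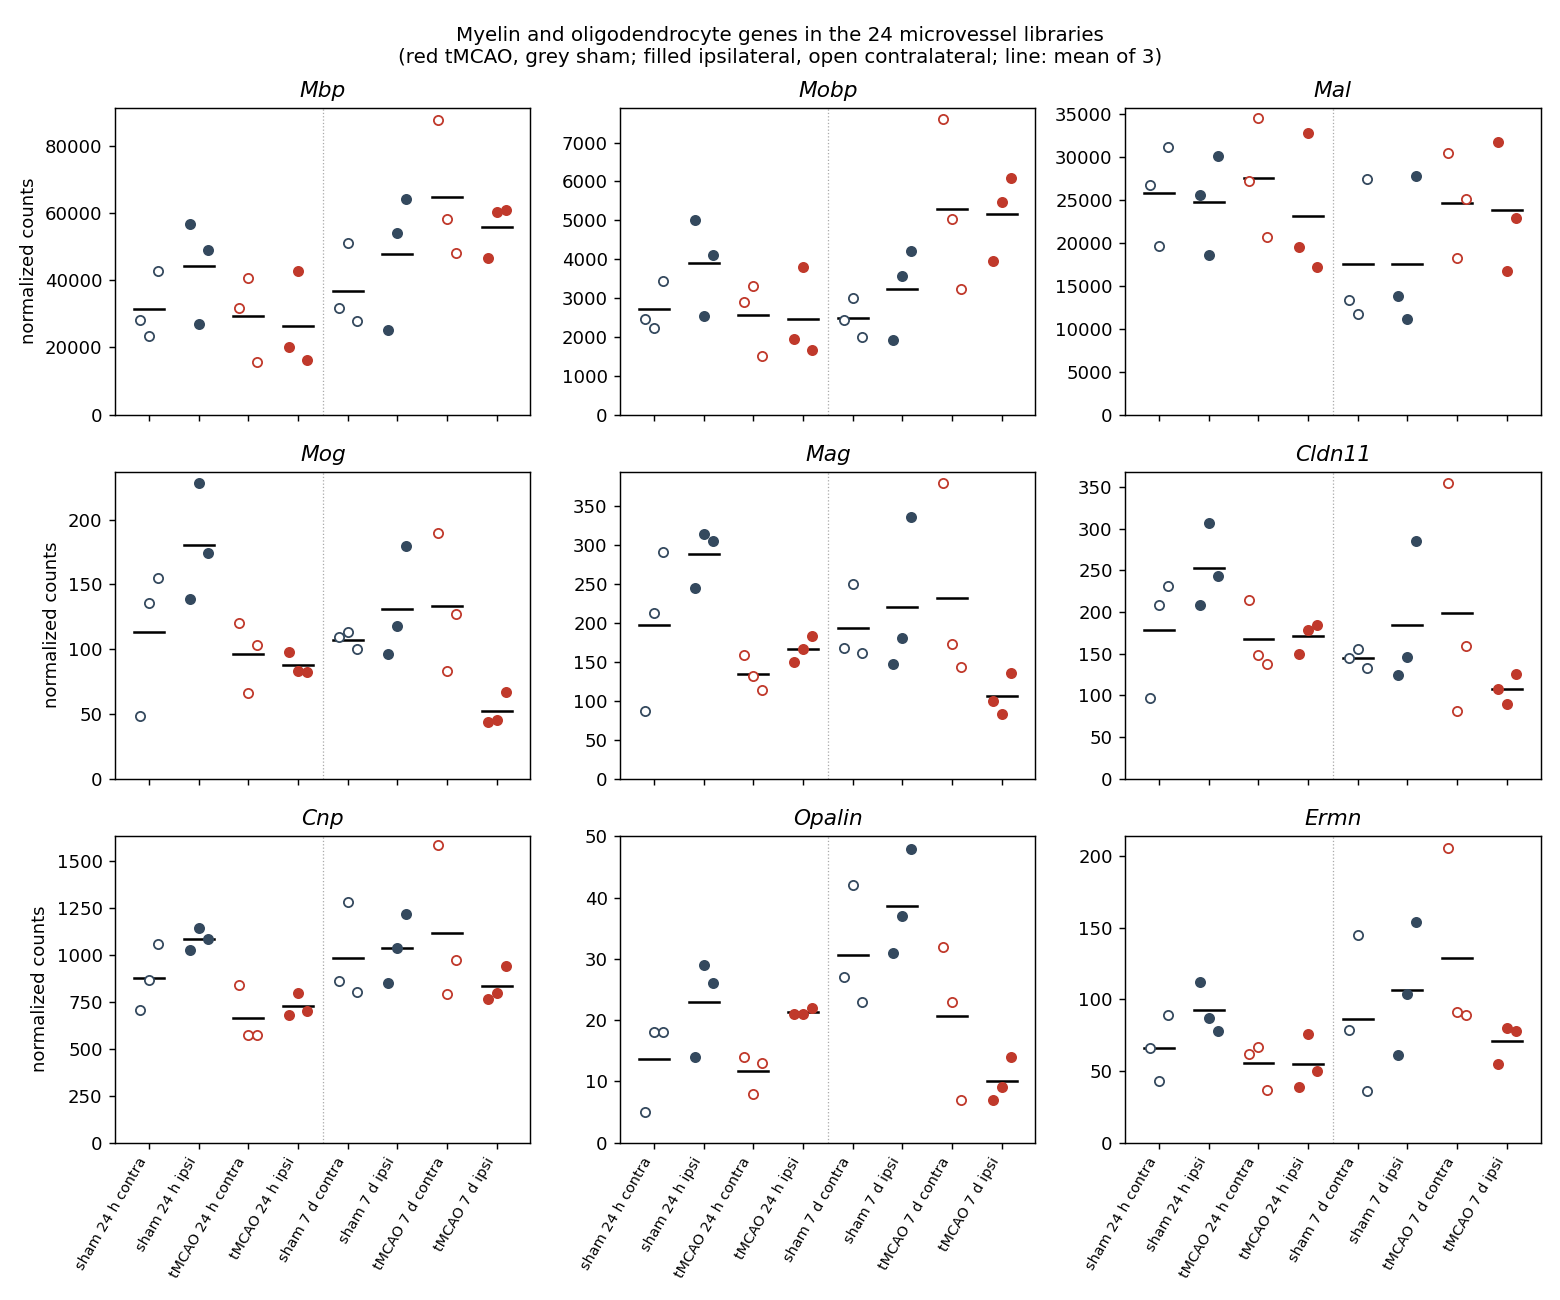
Normalized counts (linear axes from 0) of the 9 genes in the 24 libraries, with the 8 groups on the horizontal axis, 1 point per library and a line at the mean of 3; red is tMCAO, grey is sham, filled is ipsilateral and open is contralateral. The 3 ipsilateral tMCAO libraries at 7 days are low for Mog (44 to 67) and Opalin (7 to 14) and high for Mobp (3942 to 6100). Mobp is also high in the contralateral tMCAO libraries at 7 days (3221 to 7598), and Opalin is also low in the contralateral tMCAO libraries at 24 h (8 to 14).

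Mog, the surface protein of the sheath, was called in 3 of the 5 main comparisons. It measured 139, 228 and 174 normalized counts in the ipsilateral sham libraries at 24 h and 98, 83 and 82 in the ipsilateral tMCAO libraries at that time. At 7 days it measured 96, 118 and 180 in the ipsilateral sham and 44, 45 and 67 in the ipsilateral tMCAO libraries. At both times every tMCAO library thus lay below every sham library of the same side. In the contralateral hemisphere Mog measured 48, 136 and 155 (sham, 24 h), 120, 66 and 103 (tMCAO, 24 h), 109, 113 and 100 (sham, 7 days) and 190, 83 and 127 (tMCAO, 7 days), and these groups overlapped. Ordered by mean, the groups ran from the ipsilateral sham at 24 h (180 ± 44.8, SD, n = 3) through 6 groups that each overlapped the next to the ipsilateral tMCAO group at 7 days (52.0 ± 13.0), whose 3 libraries lay below all 3 of the group above it in the order, the ipsilateral tMCAO group at 24 h (87.7 ± 8.96).

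The comparison of ipsilateral tMCAO with ipsilateral sham at 24 h asks what occlusion and reperfusion changed on the injured side within 1 day. Mog was the gene of the 9 that was called, lower by 1.01 on the log2 scale (fold 0.497, SE 0.365, 95% confidence interval −1.77 to −0.25, adjusted p = 0.0424, limma). A call here means an adjusted p under 0.05 and a change of at least 1.5-fold, and 8.23% of all 15982 genes were called lower and 10.0% higher in this comparison. The other 8 estimates also lay below 0, from −0.04 for Opalin to −0.81 for Mbp, with a median of −0.70 over the 9 genes and −0.02 over all genes tested, but none of these 8 passed the test. The 3 tMCAO libraries lay below the 3 sham libraries without overlap for 5 of the 9 genes (Mog, Mag, Cnp, Cldn11 and Ermn), as did 24.1% of all genes (25.0% lay above without overlap).

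Mag measured 244, 314 and 305 normalized counts in the ipsilateral sham and 149, 166 and 183 in the ipsilateral tMCAO libraries at 24 h, a log2 difference of −0.79 (SE 0.382, adjusted p = 0.124, limma). Cnp measured 1026, 1141 and 1081 against 678, 794 and 702, a difference of −0.58 (SE 0.222, adjusted p = 0.0532). Both sets of libraries were separated, but neither difference passed the threshold. Mbp and Mobp overlapped between the groups at 24 h: Mbp measured 56795, 27027 and 48956 in sham and 20242, 42644 and 16148 after tMCAO, and Mobp 5012, 2547 and 4118 against 1950, 3801 and 1668. Opalin (14, 29 and 26 against 21, 21 and 22) and Mal (25552, 18579 and 30121 against 19511, 32704 and 17169) showed no separation. The Mog call at 24 h was fragile, since leaving out any 1 of 5 of the 6 libraries ended it, with adjusted p up to 0.147 without the ipsilateral sham library 2 (log2 difference −0.82). It held only without the ipsilateral sham library 1 (adjusted p = 0.0490).

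The same comparison at 7 days asks what remained or had developed on the injured side. Here 2 of the 9 genes were called, both lower, in a comparison with 9.95% of all genes called lower and 3.27% called higher. Mog was lower by 1.30 on the log2 scale (fold 0.407, SE 0.365, 95% confidence interval −2.06 to −0.53, adjusted p = 0.0178, limma). Opalin measured 31, 37 and 48 normalized counts in the ipsilateral sham libraries and 7, 9 and 14 in the ipsilateral tMCAO libraries, so that the highest tMCAO value was under the lowest sham value. Its difference was −1.88 on the log2(value + 1) scale (fold 0.272, SE 0.479, 95% confidence interval −2.88 to −0.88, adjusted p = 0.00954, limma). The pseudocount makes this an understatement at such low values. The Opalin call was lost without the ipsilateral tMCAO library 1 (−1.67, adjusted p = 0.0527), and the Mog call without the sham library 3 (−1.05, adjusted p = 0.0872) or without the tMCAO libraries 1 (adjusted p = 0.0738) or 2 (adjusted p = 0.0555). Mag measured 147, 180 and 335 in sham and 100, 83 and 135 after tMCAO, again with no overlap, but its difference of −0.99 did not pass (SE 0.382, adjusted p = 0.0846). Without overlap, 3 of the 9 genes (Mog, Mag and Opalin) thus lay lower and none higher, where 16.6% of all genes lay lower and 13.4% higher.

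Mobp and Mbp did not share this direction at 7 days. Mobp measured 1912, 3555 and 4223 normalized counts in the ipsilateral sham libraries and 3942, 5477 and 6100 in the ipsilateral tMCAO libraries, a log2 difference of 0.73 (95% confidence interval −0.05 to 1.52, adjusted p = 0.204, limma). Mbp measured 25138, 53990 and 64223 against 46486, 60108 and 60887, a difference of 0.32 (95% confidence interval −0.57 to 1.21, adjusted p = 0.676). Mal, at 13797, 11108 and 27716 against 31755, 16726 and 22917, gave 0.51 (−0.26 to 1.27, adjusted p = 0.391). The sham and tMCAO values of all 3 overlapped, and intervals of this width include both no change and a rise of more than 2-fold. Cnp (−0.30), Cldn11 (−0.70) and Ermn (−0.50) were also not called, and the median over the 9 genes was −0.50, with 0.02 over all genes tested.

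**Figure D2:**
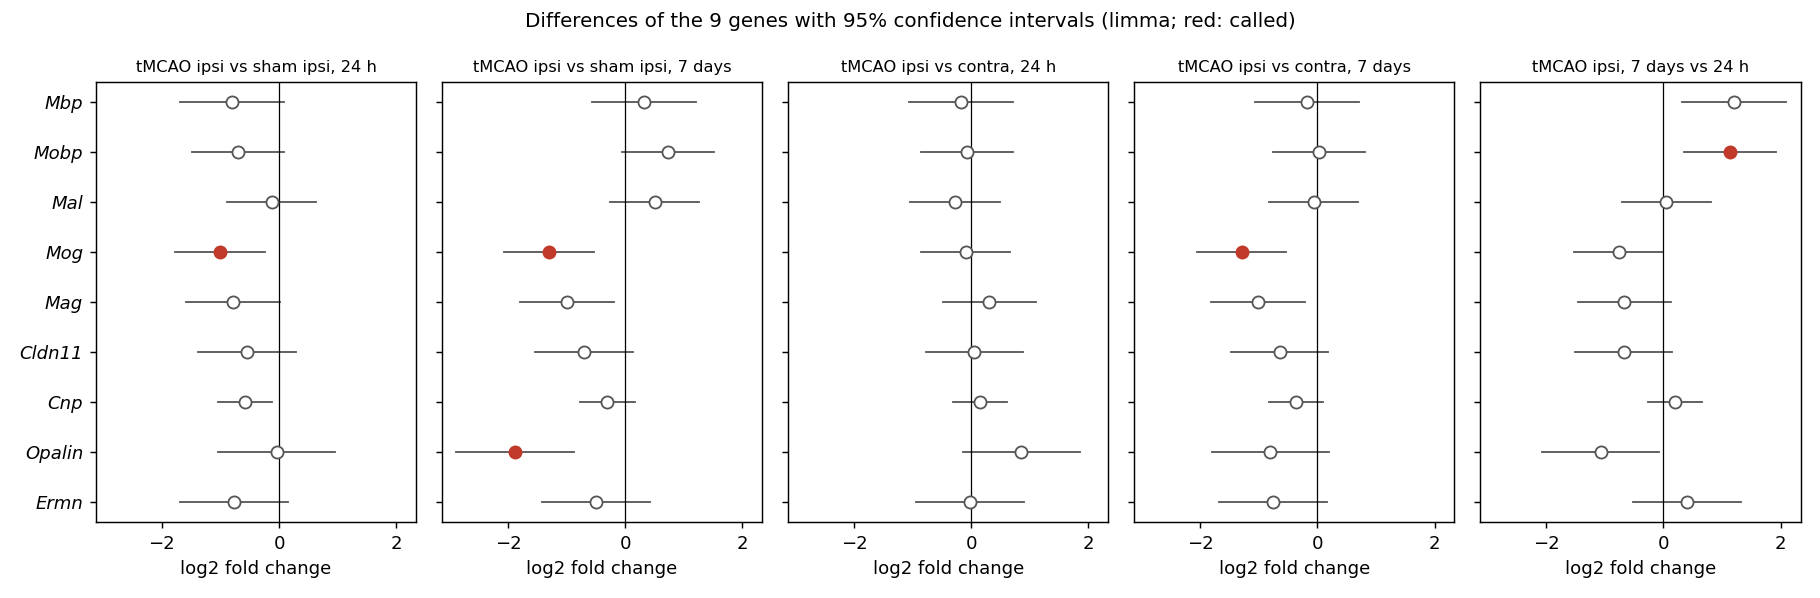
Log2 fold changes (horizontal axes) of the 9 genes in the 5 main comparisons, with 95% confidence intervals from limma as lines; red points passed the call rule. Mog is called lower in 3 of the 5 panels, Opalin lower at 7 days against sham, and Mobp higher at 7 days than at 24 h.

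The ipsilateral and contralateral hemispheres of tMCAO brains were compared to set the injured side against the other side of operated animals. At 24 h none of the 9 genes was called, where 5.14% of all genes were called lower and 8.52% higher. The estimates lay between −0.28 (Mal) and 0.85 (Opalin), with a median of −0.02, and no unadjusted p of the 9 was under 0.05. Opalin was the gene whose libraries did not overlap, at 14, 8 and 13 normalized counts contralaterally and 21, 21 and 22 ipsilaterally (95% confidence interval of the difference −0.15 to 1.85, adjusted p = 0.202, limma), and 21.7% of all genes lay higher and 19.1% lower without overlap. Mog measured 120, 66 and 103 contralaterally at 24 h, close to the ipsilateral values above, and its difference was −0.10 (95% confidence interval −0.86 to 0.67). This comparison and the one against sham share the ipsilateral tMCAO libraries, so their values are not independent.

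At 7 days Mog was called lower ipsilaterally than contralaterally, by 1.29 on the log2 scale (SE 0.365, adjusted p = 0.0174, limma), where 9.98% of all genes were called lower and 3.03% higher. Without the contralateral library 1, which stood apart, the difference was −0.995 and no longer passed (adjusted p = 0.122), nor did it without the ipsilateral library 1 (−1.18, adjusted p = 0.0775) or 2 (−1.20, adjusted p = 0.0598). Mag, at 379, 173 and 143 normalized counts contralaterally against the ipsilateral 100, 83 and 135, was lower by 1.01 (adjusted p = 0.0798), and without that library the difference was −0.59 (adjusted p = 0.395). Ermn (206, 91 and 89 against 55, 80 and 78) was the third gene without overlap, with a difference of −0.75 (adjusted p = 0.302), and without the contralateral library 1 this was −0.36 (adjusted p = 0.729). The 3 genes without overlap were all lower ipsilaterally, as were 14.6% of all genes (25.3% lacked overlap in either direction). Opalin, at 32, 23 and 7 contralaterally, overlapped the ipsilateral values, and Mobp (7598, 5043 and 3221 contralaterally) was level between the hemispheres, with a difference of 0.03 (95% confidence interval −0.75 to 0.82, and 0.34 without library 1).

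Whether the difference between the hemispheres was itself changed by tMCAO was tested as an interaction with the sham hemispheres. None of the 9 genes was called at 24 h (4.64% of all genes higher, 1.25% lower) or at 7 days (1.19% higher, 8.65% lower). For Mog the interaction was −0.90 at 24 h (adjusted p = 0.292, limma) and −1.53 at 7 days (SE 0.517, adjusted p = 0.0677). With same-numbered hemisphere pools as a block, the 7 day interaction of Mog was called (adjusted p = 0.0243, limma). The deviations of same-numbered pools correlated at 0.145 or more in every sham pair and at 0.0593 or more in every tMCAO pair. Not every tMCAO pair reached 0.1, the limit set for reading the numbers as pairs. Without the block and without the contralateral tMCAO library 1, the 7 day interaction of Mog was −1.24 (adjusted p = 0.210, limma). Mag gave −1.15 at 7 days (adjusted p = 0.231) and −0.73 without that library (adjusted p = 0.559).

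Within the ipsilateral tMCAO hemisphere the genes differed in direction between 24 h and 7 days. Mobp rose, from 1950, 3801 and 1668 to 3942, 5477 and 6100 normalized counts, and was called higher by 1.14 on the log2 scale (fold 2.20, SE 0.376, 95% confidence interval 0.35 to 1.92, adjusted p = 0.0389, limma), in a comparison that called 3.72% of all genes higher and 8.44% lower. Mbp went from 20242, 42644 and 16148 to 46486, 60108 and 60887, with no overlap, and its difference of 1.20 lay just outside the threshold (SE 0.425, adjusted p = 0.0527). By contrast Mog, Mag, Cldn11 and Opalin were lower in every 7 day library than in every 24 h library, by 0.76, 0.67, 0.68 and 1.07 on the log2 scale, but none of these 4 differences passed (adjusted p = 0.123 to 0.247). Overlap was absent in 34.2% of all genes, 14.2% upward and 19.9% downward. Cnp (0.20), Ermn (0.40) and Mal (0.05) overlapped between the times. The Mobp call was lost without either of the ipsilateral tMCAO libraries 1 and 3 at 24 h or 2 and 3 at 7 days, with adjusted p up to 0.139.

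The time course in the other groups gives the setting for these values. In the contralateral tMCAO hemisphere, where no gene of the whole table was called between 24 h and 7 days (16.5% of genes had an unadjusted p under 0.05), Mbp went from 31720, 40606 and 15580 to 87714, 58271 and 48123 normalized counts, a difference of 1.21 (adjusted p = 0.175, limma). Mobp differed there by 1.03 (adjusted p = 0.185) and Ermn by 1.13 (adjusted p = 0.212). Without the contralateral library 1 at 7 days these 3 differences were 0.96 for Mbp, 0.73 for Mobp and 0.74 for Ermn (adjusted p = 0.442 to 0.531). Against the contralateral sham at 7 days (2438, 3009 and 2000), Mobp was higher in all 3 contralateral tMCAO libraries, by 1.02, without passing the test (adjusted p = 0.378, 0.0250% of genes called higher), as 5.04% of all genes lay higher without overlap. Without library 1 the difference was 0.72 (adjusted p = 1, limma). No gene of the table was called between the sham hemispheres at either time (limma). There 2.30% of genes had an unadjusted p under 0.05 at 24 h and 2.25% at 7 days, and at 24 h this included Mog, higher ipsilaterally by 0.81 (95% confidence interval 0.04 to 1.57, adjusted p = 1, limma). None of the 9 genes lacked overlap between the sham hemispheres, where 5.36% of genes at 24 h and 4.37% at 7 days lay higher and 6.10% and 2.63% lower without overlap. Compared by number, as the same-numbered sham pools deviated together, 7 of the 9 genes were higher ipsilaterally in 3 of 3 pairs at 24 h. Mal was lower in 3 of 3 pairs then, and at 7 days no gene went 1 way in all 3 pairs. The genes come from the same 3 pools and many vary together, so they are not replicates. The share of all genes that went 1 way in 3 of 3 pairs was not determined. With the block of same-numbered pools no gene of the 9 was called between the sham hemispheres either. In the sham time course Opalin went the other way from the injured side: it measured 5, 18 and 18 (contralateral) and 14, 29 and 26 (ipsilateral) at 24 h and 27, 42 and 23 and 31, 37 and 48 at 7 days, with no overlap on either side, where 17.6% of all genes (contralateral) and 22.0% (ipsilateral, 11.9% upward) lacked overlap in either direction. Those differences were 1.25 contralaterally (adjusted p = 0.327, 0.232% of genes called higher) and 0.76 ipsilaterally (adjusted p = 0.509, 0.300% called higher).

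The time interaction, that is the ipsilateral tMCAO effect against sham at 7 days minus that at 24 h, was not called for any of the 9 genes (2.43% of all genes were called higher and 5.68% lower). It was 1.43 for Mobp (SE 0.532, adjusted p = 0.0911, limma), −1.84 for Opalin (SE 0.677, adjusted p = 0.0878) and 1.13 for Mbp (SE 0.601, adjusted p = 0.239). For Mog, called at both times against sham, it was −0.29 (95% confidence interval −1.37 to 0.79, adjusted p = 0.770).

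The different course of Mobp, Mbp and Mog can be read from their ratios within each library, from which library-wide scaling drops out. The ratio of Mobp to Mog was 89.6, 122 and 91.0 in the ipsilateral tMCAO libraries at 7 days, and it lay between 11.2 and 60.8, with a median of 23.7, in the other 21 libraries. The ratio of Mbp to Mog was 1056, 1336 and 909 in those 3 libraries and between 119 and 702 in the other 21. The ratio of Mobp to Mbp, in contrast, lay between 0.0590 and 0.103 in the other 21 libraries and between 0.0848 and 0.1002 in these 3, and that of Mag to Mog between 1.11 and 2.23 and between 1.84 and 2.27. The proportions of Mobp to Mbp and of Mag to Mog in these 3 libraries thus overlapped the range of the other 21. The proportions of Mobp and of Mbp to Mog did not. Against the 7 day sham libraries alone, however, Mobp to Mbp was higher without overlap. It was 0.0658 to 0.0761 in the ipsilateral and 0.0590 to 0.0767 in the contralateral sham. Its overlap was with other groups, such as the contralateral tMCAO at 7 days (0.0669 to 0.0866) and the ipsilateral sham at 24 h (0.0841 to 0.0942). The ratios were formed after the values had been seen and are given as a description with no test. Cnp was intermediate: its ratio to Mog was 17.3, 17.6 and 14.1 in the 3 libraries, above 20 of the other 21.

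**Figure D3:**
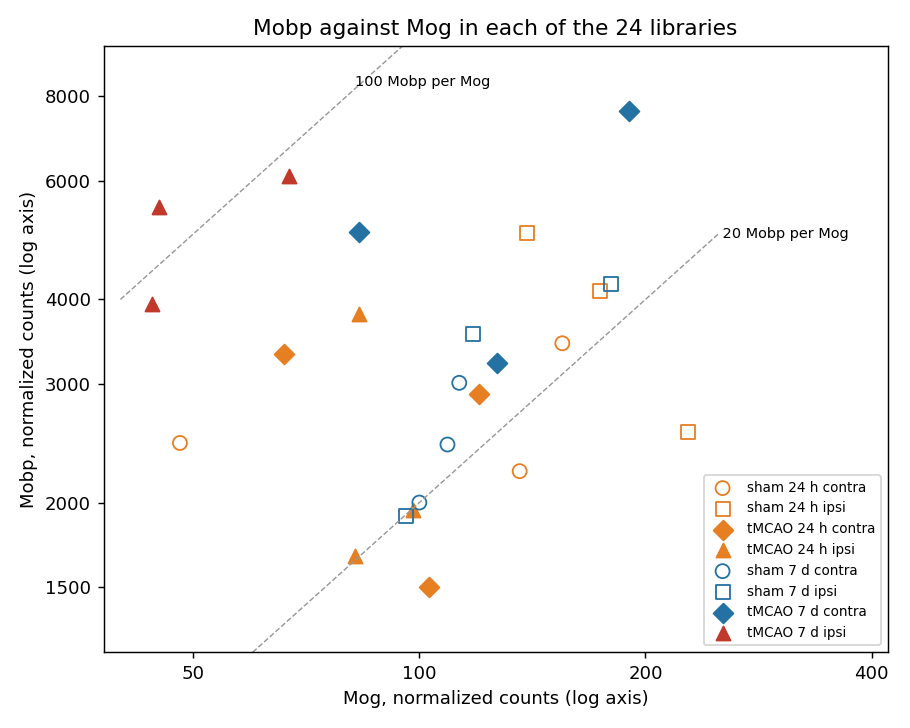
Mobp (vertical) against Mog (horizontal), both in normalized counts on log axes, with 1 symbol per library and dashed lines at 20 and 100 Mobp per Mog. The 3 ipsilateral tMCAO libraries at 7 days (red triangles) lie at the upper left, at 89.6 to 122 Mobp per Mog, apart from the other 21 libraries at 11.2 to 60.8.

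The genes also differed in how they varied together among libraries of 1 group. After subtracting each group's mean from the log2 values, Mbp and Mobp had a Pearson r of 0.97 over the 24 libraries. The 6 pairs among Mog, Mag, Cldn11 and Opalin had r between 0.55 and 0.86, and the 8 pairs that joined one of these 4 with Mbp or Mobp had r between 0.13 and 0.50. Ermn went with Mbp (0.80) and Mobp (0.79) more than with Mag (0.55) or Mog (0.26), and Cnp went with genes of both kinds, at 0.85 with Cldn11, 0.74 with Ermn and 0.56 with Mbp and with Mobp. Mal had r between −0.15 and 0.42 with the other 8. Without subtracting the group means, the pairs of Mog, Mag, Cldn11 or Opalin with Mbp or Mobp ranged from −0.01 to 0.29 and the Mbp and Mobp pair stood at 0.95. These values describe libraries that share their vessels, depth and scaling, and are given without a test.

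**Figure D4:**
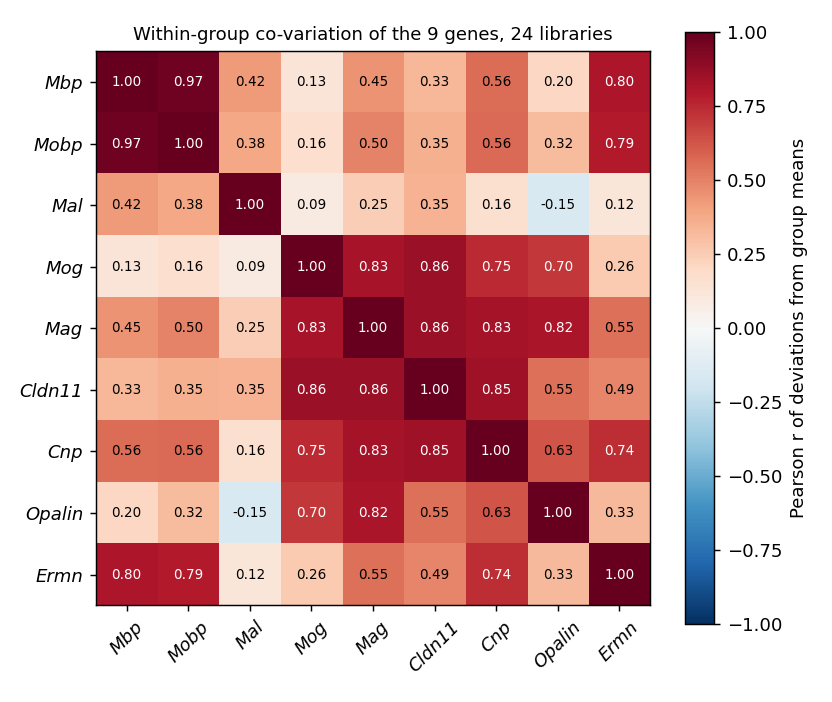
Pearson r, over the 24 libraries, between the deviations of each pair of genes from their group means (log2 values; color scale from −1 to 1). The pairs among Mbp, Mobp and Ermn lie at 0.79 to 0.97 and those among Mog, Mag, Cldn11 and Opalin at 0.55 to 0.86, Cnp is at 0.56 or more with each of these 7, and Mal is at most 0.42 with any gene.

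Among all genes tested, the 10 whose log2 values were most like the mean of the 9 genes over the 24 libraries included Cbln1 (r = 0.91), Olig1, Ncam1, Aldh1l1, Nefh, Slc6a11, Acsbg1, Rab3c and Btbd17 (0.88). Olig1 encodes a transcription factor of the oligodendrocyte lineage, but Aldh1l1 is an astrocyte gene and Nefh encodes a neurofilament of axons. The nearest genes to single members, looked up after the values were seen, again differed between members. Mbp was closest to Prr18 (0.96) and Plekhb1 (0.96), and Mobp to Mbp and to AC110091.2 (0.94), which is on none of the lists. Whether the reads of AC110091.2 are separable from those of Mobp was not tested. Mag and Mog were close to Cntn2 (0.93 and 0.91), and Opalin to Fasn (0.78), Ugt8a (0.78) and Sox10 (0.77). Cntn2 is on the list of other myelin genes, and its cell of origin was not tested. The genes closest to Mal were Eftud2 (0.93) and Angptl4 (0.92), neither of them on any of the oligodendrocyte lists.

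The other genes of the lineage were grouped by role. Of 47 other myelin genes tested, 5 were called lower, among them Anln, Efnb3, Prrg3 and Pllp, and 2 higher (Adamts4 and Cdc42ep2) at 24 h, with a median of −0.41 (limma). Over all genes tested, the shares called were 8.23% lower and 10.0% higher at 24 h and 9.95% lower and 3.27% higher at 7 days, and the counts of every list below stand against these. Adamts4, a protease of the extracellular matrix, rose by 3.21 (adjusted p = 0.00398), to 2776, 3543 and 1286 from 161, 126 and 771, and it is not confined to oligodendrocytes. At 7 days 8 of the 47 were called lower, among them Gpr37, Cntn2, Nfasc, Efnb3, Lpar1, Gpm6b and Prrg3, and none higher, with a median of −0.28. Gpr37, a receptor of late oligodendrocytes, was lower by 1.94 (adjusted p = 0.00256, limma), and Cntn2 by 1.57 (adjusted p = 0.0163, limma). Whether the RNA of the genes on this list came from oligodendrocytes or from other cells was not tested. Nfasc, which anchors the sheath beside the node, was also called (adjusted p = 0.00340). Between 24 h and 7 days on the injured side, Anln (1.14), Ndrg1 (1.11) and Pllp (1.003) were called higher, as Mobp was, and Nfasc, Cdc42ep2, Trf and Adamts4 lower.

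Genes of myelin lipid synthesis were called in both directions. Fa2h, which hydroxylates the fatty acids of myelin lipids, measured 57, 92 and 54 normalized counts in the ipsilateral sham and 15, 23 and 27 in the ipsilateral tMCAO libraries at 24 h, and 30, 52 and 80 against 12, 5 and 13 at 7 days. It was lower by 1.60 at 24 h (adjusted p = 0.0133, limma) and by 2.31 at 7 days (adjusted p = 0.00138), and its 7 day values in the injured hemisphere lay below all other 21 libraries. How many of all genes lay below all other 21 libraries in this way was not determined. Aspa, which releases acetate for lipid synthesis, was called lower at both times (−1.004 and −0.93), and Ugt8a, the galactosyltransferase of the main myelin glycolipids, at 7 days (−1.44, adjusted p = 0.0251). Plpp2 was called higher at both times (0.89 and 0.82) and Elovl1 at 24 h (0.82), so that of 11 genes 2 were lower and 2 higher at 24 h and 3 lower and 1 higher at 7 days, beside 8.23% and 10.0% of all genes at 24 h and 9.95% and 3.27% at 7 days.

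Among the transcription factors that specify and maintain oligodendrocytes, Sox10, Olig2, Myrf and Sox8 were lower on the injured side at 7 days. Sox10 measured 53, 91 and 111 normalized counts in the ipsilateral sham and 10, 17 and 26 in the ipsilateral tMCAO libraries (log2 difference −2.23, SE 0.448, adjusted p = 0.00147, limma). Olig2 measured 41, 37 and 37 against 6, 9 and 17 (−1.86, SE 0.414, adjusted p = 0.00340), and Myrf, which drives the myelin genes, 49, 65 and 101 against 12, 33 and 37 (−1.44, SE 0.469, adjusted p = 0.0387). For Sox10 and Olig2 the 3 injured libraries lay below all other 21. The same held for the summed neuron markers, at 1066 to 1651 against 2501 to 24328. The share of all genes that did so was not determined. With Sox8 (−1.77), 4 of 10 such factors were called lower at 7 days and none higher (median −0.97), while Olig1 did not pass (−0.94, adjusted p = 0.0704). At 24 h 1 of 10, Myt1 (−1.46), was called lower. Sox10 and Olig2 were also lower at 7 days than at 24 h on the injured side (−1.71 and −1.61) and lower than in the contralateral hemisphere at 7 days (−2.13 and −2.23), and for both, and for Sox8, the interaction with the sham hemispheres at 7 days was called (−2.25, −2.42 and −2.21). Without the contralateral library 1, the hemisphere differences of Sox10 and Olig2 were still called (−1.58 and −1.69), as were the interactions of Olig2 (−1.87, adjusted p = 0.0282, limma) and Sox8 (−1.69, adjusted p = 0.0248), but that of Sox10 was not (−1.70, adjusted p = 0.0866). In the same 3 libraries neither Mbp nor Mobp was called lower in any of these 3 comparisons.

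Genes of precursor cells were called lower in 5 of 18 at 24 h and 9 of 18 at 7 days, with medians of −0.74 and −1.29, and 1 of 18, Vcan, was called higher at both times. At 7 days the 3 largest differences were those of Lhfpl3 (−1.87), Cspg5 (−1.85) and C1ql1 (−1.60). The defining pair was not called: Pdgfra gave −0.96 at 24 h (adjusted p = 0.0505, limma) and −0.94 at 7 days (adjusted p = 0.0822), and Cspg4 −0.43 and −0.21. Both are also made by cells of the vessel wall, Cspg4 by pericytes and Pdgfra by fibroblasts. Whether the RNA of the other genes on the precursor list came from precursor cells or from other cells was not tested. Vcan, a matrix proteoglycan, measured 137, 162 and 159 against 735, 600 and 704 at 24 h (2.15, adjusted p = 9.48e-06). Of 11 genes of newly formed oligodendrocytes, Gpr17 and Neu4, which also stand on the precursor list, were called lower at both times, and the list's median was −0.23 at 24 h and 0.20 at 7 days. That median joins unlike genes. At 7 days Itpr2 measured 828, 1047 and 1131 in the ipsilateral sham and 1283, 1126 and 1461 after tMCAO, and Gpr17 45, 49 and 81 against 17, 11 and 35. Which cells the RNA of the newly formed oligodendrocyte list came from was not tested. Bcas1, a marker of that stage, measured 1178, 2384 and 3066 in sham and 2436, 3268 and 3113 after tMCAO at 7 days (0.51, adjusted p = 0.528), and Enpp6 was not called (−0.94, adjusted p = 0.127). Of 6 Schwann cell genes tested none was called at 24 h, and at 7 days Prx was called higher and Drp2 lower.

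**Figure D5:**
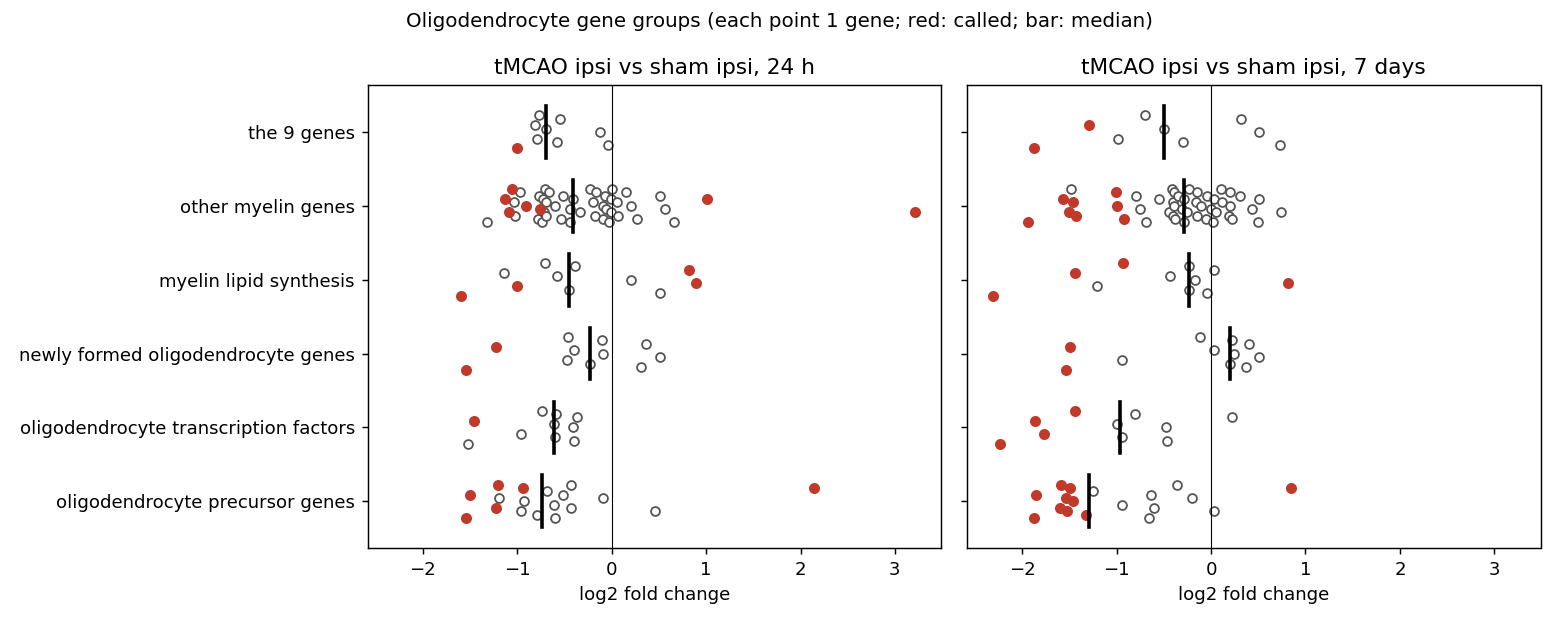
Log2 fold changes (horizontal axes) of the genes on 6 lists, ipsilateral tMCAO against ipsilateral sham at 24 h (left) and 7 days (right); each point is 1 gene, red points were called and black bars are medians. The medians of the transcription factors and precursor genes at 7 days are −0.97 and −1.29, and that of the newly formed oligodendrocyte genes is 0.20. On that last list Gpr17 and Neu4 were called lower.

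Markers of other brain cells moved in the same comparisons. Of 10 neuron markers, 7 were called lower at 24 h and 10 at 7 days, with summed levels of 7333 to 7778 in the ipsilateral sham against 2501 to 3942 after tMCAO at 24 h, and 7452 to 13566 against 1066 to 1651 at 7 days. Of 10 astrocyte markers, 7 were lower at 24 h (summed 19182 to 28091 against 12149 to 18269) and 4 at 7 days (16852 to 34795 against 11188 to 14895). Gfap, also on this list, went the other way at 7 days, from 1075, 1008 and 3327 in the ipsilateral sham to 3453, 3934 and 5327. These Gfap values did not overlap, and 13.4% of all genes lay higher without overlap there. None of these markers was at 0 in a whole group. Choroid plexus markers were lower in 5 of 8 at 7 days (summed 15990 to 29170 against 676 to 3180), and 8 of 8 neutrophil and monocyte markers tested were higher at 24 h (summed 338 to 1202 against 3258 to 6094). Summed pericyte and mural markers were 139498 to 164425 in the ipsilateral sham against 78336 to 138621 after tMCAO at 24 h. At 7 days these sums were 165527 to 171611 against 97997 to 129538. Endothelial sums were 444813 to 541025 against 391105 to 427837 at 24 h, and overlapped at 7 days (416055 to 565305 against 477203 to 617713). The medians of the neuron list were −1.36 and −2.89, beyond those of the 9 genes (−0.70 and −0.50). Their part in the results for the myelin and oligodendrocyte genes was not tested.

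The 9 genes are protein-coding and lie on 8 chromosomes, given here by their span in the deposited mm10 annotation, exons and introns together. Mbp spans chr18:82475146-82585637 on the plus strand, Mobp chr9:120149707-120176091 (plus), Cnp chr11:100574904-100581728 (plus) and Cldn11 chr3:31149920-31164324 (plus). Mog spans chr17:37010743-37023398 on the minus strand, Mag chr7:30899176-30914832 (minus) and Opalin chr19:41062474-41077113 (minus). Ermn at chr2:58045113-58052864 and Mal at chr2:127633226-127656695, both on the minus strand, share a chromosome. Some of the 9 genes overlap other genes in GENCODE M21: Ermn lies opposite Galnt5, Mbp holds the pseudogene Rpl21-ps8 and Mog a small RNA gene on their other strands, and longer models of Cnp and Mobp reach into Dnajc7 and Gm38642. The library kit kept the strand, but whether counting used it is not stated in the sources used here, and reads matching several genes were excluded by the study, so the values of Ermn in particular are uncertain in this respect.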

How the data were processed

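Microvessel RNA of 24 libraries (8 groups of 3) was analysed. The authors aligned reads to mm10 with STAR, counted them per gene with featureCounts 1.5.1, left out reads matching several genes and normalized with DESeq2 (the authors' processing notes name STAR 2.5.2b and DESeq2 1.6.2, and their methods other versions). The values the authors deposited are normalized counts rounded to whole numbers, handled as a score and not as raw counts. The authors dropped outlying libraries before deposit, so the spread within groups may be understated.

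Values were tested as log2(value + 1) with limma 3.58.1 (R 4.3.3), with 1 coefficient per group and the spread shared over all 24 libraries, for genes with a mean above 5; p-values were adjusted over all 15982 genes by Benjamini and Hochberg. A call needed an adjusted p under 0.05 and a change of at least 1.5-fold, the study's own rule. The script was tested on simulated data. Depth was estimated from the steps among low values. The genes and lists were chosen with earlier results of these data known. Named were the 9 genes, the 3 largest called changes of each list, defining lineage genes and the 10 genes most like the mean of the 9; others are said to be chosen after their values were seen, or come from lists with few calls. Alternatives were another pseudocount, other filters, median centring, a replicate block, a block of same-numbered hemisphere pools, no limit on the fold, only the groups compared, a correction for length and GC content, and leaving out each library. Transcript lengths and overlaps came from GENCODE M21 (mm10), promoters from RefSeq (GRCm38.p6); for 99.9% of genes a length was found. Same-numbered libraries were read as pairs where the deviations from the group means correlated above 0.1 in every pair, which held for the sham hemispheres (0.145 or more) and not for the tMCAO hemispheres (down to 0.0593). A few genes of the lists are not reported here.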

Additional observations from a re-analysis of the deposited data

Results flagged for a closer look

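Opalin went in opposite directions with time in 2 groups. Between 24 h and 7 days every ipsilateral sham library was higher (14, 29 and 26 against 31, 37 and 48 normalized counts), and every ipsilateral tMCAO library was lower (21, 21 and 22 against 7, 9 and 14). The difference of these changes, tested as the time interaction, was −1.84 on the log2(value + 1) scale and did not pass in limma (95% confidence interval −3.25 to −0.42, adjusted p = 0.0878). It rests on 6 to 47 estimated reads per library.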

How the results depend on the processing

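Over the settings that keep all libraries, 479 of 494 differences of single genes kept their direction and their side of the threshold. Median centring and the correction for length and GC content each gave 2 genes lower at 24 h against sham (Cnp added), and 2 higher between 24 h and 7 days on the injured side (Mbp added); length and GC content also gave 1 lower in the 7 day hemisphere interaction (Mog, adjusted p = 0.0306, limma). With only the groups compared there were 2 lower at 24 h against sham (Mag added), 0 lower at 7 days between tMCAO hemispheres, 1 lower between the times (Cldn11) and 1 lower in the time interaction (Opalin); fewer libraries enter those fits. Between tMCAO hemispheres at 24 h, the sign turned for Cldn11 under centring (−0.028) and under length and GC (−0.159), for Cnp (−0.000836) and Ermn (0.176) under length and GC, all far from the threshold. The replicate block over same-numbered libraries changed no call. With a replicate block of same-numbered hemisphere pools, 2 genes were lower between tMCAO hemispheres at 7 days (Mag added, adjusted p = 0.0488) and 1 in the interaction (Mog, adjusted p = 0.0243); each library correlated best with its own number, so for the tMCAO pools, which missed the pairing criterion, the number is a hint of pairing and not the design. Between the sham pools the block changed no call. Causes were not tested.

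Leaving out 1 library at a time, called genes ranged from 0 to 1 lower (24 h against sham), 0 to 2 lower (7 days against sham), 0 to 3 lower (tMCAO hemispheres, 7 days), 0 to 2 higher (7 days against 24 h), 0 to 1 higher (time interaction) and 0 to 1 lower (hemisphere interaction, 7 days). Signs turned in these ranges: at 24 h against sham, Opalin −0.35 to 0.15 and Mal −0.41 to 0.0576; at 7 days, Mbp −0.0877 to 0.59; between tMCAO hemispheres at 24 h, Mbp −0.59 to 0.11, Mog −0.34 to 0.0823, Mobp −0.43 to 0.16, Cldn11 −0.0714 to 0.25 and Ermn −0.28 to 0.20, and at 7 days Mbp −0.37 to 0.0654, Mobp −0.28 to 0.34 and Mal −0.30 to 0.17; between the times, Mal −0.18 to 0.33. Each omission leaves 1 arm with 2 libraries. Opalin and Ermn rest on the fewest reads.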

Other observations

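The summed level of the 9 genes took between 0.223% and 0.738% of all normalized counts of a library, and the groups overlapped: 0.452% ± 0.121 (SD, n = 3) in the ipsilateral sham against 0.314% ± 0.133 after tMCAO at 24 h, and 0.418% ± 0.143 against 0.488% ± 0.0427 at 7 days. Mal, whose cell of origin was not tested, is part of this sum. The ratio of Mal to Mbp ranged from 0.206 to 1.33 and was 0.683, 0.278 and 0.376 in the ipsilateral tMCAO libraries at 7 days. These ratios were looked at after the values had been seen.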
